A study of Arabidopsis thaliana with 4 samples.

Results

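The mitochondrial dysfunction marker genes described here are 10 Arabidopsis thaliana genes listed as markers of disturbed mitochondrial function. Each locus was read from the probe set that the platform annotation assigns to that locus alone. All 10 were measured, each by 1 probe set without a shared-probe suffix, out of 13333 loci with a named probe set and 22746 probe sets tested. The values come from whole 9-day-old seedlings of the css1 mutant (2 arrays) and of the wild type, Columbia accession (WT, 2 arrays). Every array was hybridised with RNA from its own biological sample, and all plants shared B5 agar (0.8%) with 2% sucrose and continuous light of 80 µmol photons per square metre and second. The labels give neither the css1 allele nor the gene it affects, nor how many seedlings made up a sample.

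Plant mitochondria signal to the nucleus when their electron transport or protein homeostasis is disturbed. In Arabidopsis this retrograde signal runs in large part through NAC transcription factors that are anchored in the endoplasmic reticulum and released by proteolysis, ANAC017 and ANAC013. Their targets, called the mitochondrial dysfunction stimulon, include the alternative oxidase AOX1A, mitochondrial stress proteins, and genes for detoxification and transport. A mutant named css1 has been described in the literature as affected in a nuclear maturase gene, nMAT1, whose product takes part in the splicing of mitochondrial complex I transcripts. The labels do not say which lesion these plants carry, and the transcript of nMAT1 is not analysed here, nor is that of AOX1A, ANAC017 or ANAC013.

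Of the 10 marker genes, 9 rose in css1 and 1, AT5G40690, did not pass the test (limma, with a threshold of 0.05 after Benjamini-Hochberg adjustment across the 22746 probe sets). Over all probe sets, 7.63% were called higher by the same rule, 8.01% lower and 15.6% in either direction. Higher calls made up 48.8% of all calls on the deposited scale and 58.0% with each array centred on its median, so the balance of directions turned with the scaling. The median css1 minus WT difference of the 10 genes was 1.84 log2 units, where that of all probe sets was −0.03. At least 2-fold rises were seen for 8 of the 10 genes and for 1.65% of all probe sets. Both css1 values lay above both WT values for the 9 genes called, an arrangement found in 26.6% of all probe sets. The marker genes were chosen with earlier results of these data known, so these counts are descriptive and were not tested against those shares. The genes with the strongest rises code for mitochondrial proteins, followed by a glutathione transferase and a transporter, then enzyme-type proteins. Because RNA came from whole seedlings, a change in the number of cells of a type and a change in RNA per cell cannot be told apart. All values below are RMA signals on a log2 scale, so a difference of 1 is a 2-fold change.

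**Figure D1:**
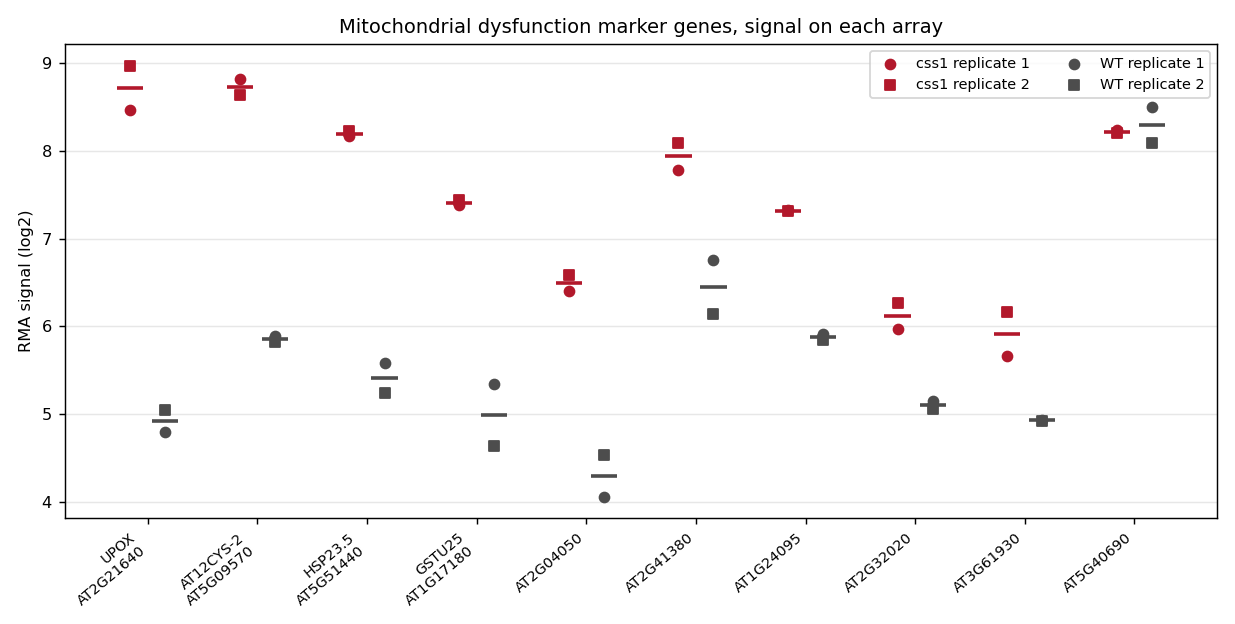
RMA signal (log2, vertical axis) of the 10 mitochondrial dysfunction marker genes on each array, css1 (red) left of WT (grey) for each gene. Circles are replicate 1, squares replicate 2 and bars the mean of the 2 arrays. The css1 values of 9 genes lie above both WT values, and those of AT5G40690 lie within the WT range.

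Among the genes for mitochondrial proteins, UPOX (AT2G21640), named for its induction by oxidative stress, had signals of 8.46 and 8.97 in the css1 seedlings, against 4.81 and 5.05 in the WT seedlings. The lowest css1 value was 3.41 log2 units above the highest WT value, and the 2 arrays of a genotype differed by 0.51 in css1 and 0.25 in WT. This was a rise of 3.78 log2 units (SE 0.18, 13.8-fold, limma adjusted p = 8.54e-04) and the 9th largest rise among all probe sets. AT12CYS-2 (AT5G09570), for a small protein with twin cysteine motifs of the kind found in the mitochondrial intermembrane space, read 8.81 and 8.64 in css1 and 5.89 and 5.82 in WT. Its replicates differed by 0.18 in css1 and 0.06 in WT, and it rose by 2.87 (SE 0.10, 7.30-fold, limma adjusted p = 4.69e-04), the smallest adjusted p of the 10 genes. HSP23.5 (AT5G51440), for a small heat shock protein of mitochondria, a chaperone that holds unfolded proteins, read 8.17 and 8.22 in css1 against 5.58 and 5.24 in WT. The WT arrays differed more than the css1 arrays did, and the rise was 2.78 (SE 0.13, 6.87-fold, limma adjusted p = 8.54e-04).

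The detoxification genes of the list followed. GSTU25 (AT1G17180) codes for a tau-class glutathione transferase, an enzyme type that couples glutathione to reactive compounds. Its signals were 7.38 and 7.44 in css1 and 5.35 and 4.64 in WT. The css1 values were nearly equal, and the gap of 0.70 between the WT arrays was the widest between replicates for any of the 10 genes. GSTU25 rose by 2.42 (SE 0.22, 5.33-fold, limma adjusted p = 0.00397), with single css1 to WT array differences from 2.04 to 2.79. AT2G04050, for a transporter of the MATE family (multidrug and toxic compound extrusion), read 6.41 and 6.59 in css1 against 4.07 and 4.54 in WT. Its WT replicate 1 value lay below that array's lower quartile of 4.31, at the dim end where RMA signals compress differences. The rise was 2.20 (SE 0.17, 4.58-fold, limma adjusted p = 0.00261).

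Enzyme-type genes of less well-defined function rose by smaller amounts. AT2G41380, for a methyltransferase-type protein, had signals of 7.78 and 8.08 in css1 and 6.76 and 6.14 in WT. The groups did not overlap, but the WT arrays stood 0.62 apart and single array differences ran from 1.03 to 1.94. The rise was 1.49 (SE 0.22, 2.80-fold, limma adjusted p = 0.0124). AT1G24095, whose product resembles thiol-disulfide oxidoreductases, read 7.32 and 7.31 in css1 against 5.92 and 5.85 in WT. All 4 arrays were close to their genotype's mean, and the rise of 1.43 (SE 0.09, 2.70-fold, limma adjusted p = 0.00137) had the smallest standard error of the list. AT2G32020, for an acetyltransferase-type protein, read 5.97 and 6.27 in css1 and 5.15 and 5.06 in WT. It rose by 1.01 (SE 0.12, 2.02-fold, limma adjusted p = 0.00781).

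The remaining genes code for proteins without a settled function. AT3G61930 had signals of 5.66 and 6.17 in css1, against 4.94 and 4.93 in WT. Here the css1 arrays were 0.50 apart while the WT arrays were nearly equal, and the rise was 0.98 (SE 0.17, 1.98-fold, limma adjusted p = 0.0183). AT5G40690 read 8.23 and 8.20 in css1 and 8.49 and 8.09 in WT. Both css1 values fell inside the WT range, and the difference was −0.07 (SE 0.14, limma adjusted p = 0.785). Its 95% interval, −0.43 to 0.28, leaves out a rise of the size of any of the other 9 genes.

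**Figure D2:**
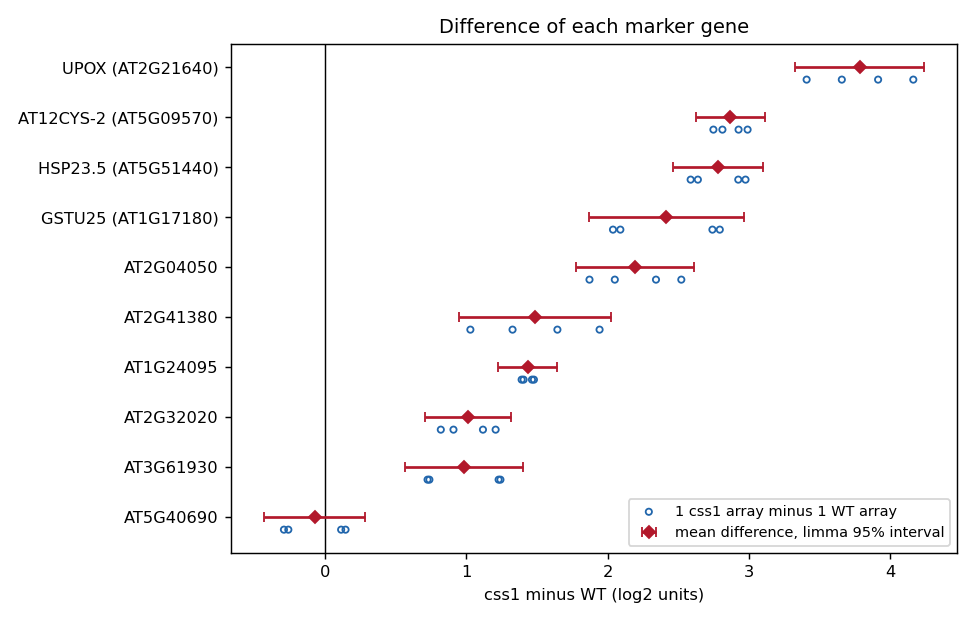
The css1 minus WT difference (log2 units, horizontal axis) of each marker gene. Red diamonds and bars are the mean difference and its limma 95% interval, and blue circles the 4 differences between 1 css1 array and 1 WT array. UPOX is farthest to the right at 3.78, and AT5G40690 is at −0.07 with an interval that holds 0.

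The order of the differences was resolved only in part. Of the 9 pairs of neighbours in that order, 7 had overlapping 95% intervals. The interval of UPOX, 3.33 to 4.24, lay wholly above that of AT12CYS-2, 2.62 to 3.11, and that of AT3G61930, 0.57 to 1.40, wholly above that of AT5G40690. The differences between genes were not tested themselves, and with different probes the size of a log2 difference is not strictly comparable between genes. The interval was wholly above a 2-fold rise for 6 genes. All 4 differences between single css1 and WT arrays were at least 2-fold for 7 genes, with AT2G32020, AT3G61930 and AT5G40690 as the exceptions.

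Array by array, the median difference of the 10 genes was 1.72 for css1 replicate 1 against WT replicate 1 and 1.76 against WT replicate 2. For css1 replicate 2 it was 1.74 against WT replicate 1 and 2.00 against WT replicate 2. Over all probe sets the same 4 medians lay between −0.05 and −0.003. At least 2-fold rises were found for 7 of the 10 genes with css1 replicate 1, against either WT array, and for 9 with css1 replicate 2, where 1.49% to 2.05% of all probe sets passed that size. Between the 2 arrays of a genotype no marker gene differed by 2-fold, in css1 or in WT.

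The median gap between replicates was larger for the marker genes than for all probe sets, but single genes lay on both sides. The median gap between the 2 css1 arrays was 0.18 log2 units for the 10 genes and 0.10 for all probe sets. Between the 2 WT arrays it was 0.29 and 0.12. In css1, HSP23.5, GSTU25, AT1G24095 and AT5G40690 had gaps under the median of all probe sets, and the other marker genes above it. In WT, those under it were AT12CYS-2, AT1G24095, AT2G32020 and AT3G61930, with the others above. The gap was wider in WT for 6 genes and wider in css1 for 4. WT replicate 1 was above WT replicate 2 for 8 of the 10 genes, where 54.6% of all probe sets were, and css1 replicate 1 was above css1 replicate 2 for 3 of the 10 genes, where 56.2% of all probe sets were. These counts describe 1 pair of arrays in each genotype and were not tested.

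**Figure D3:**
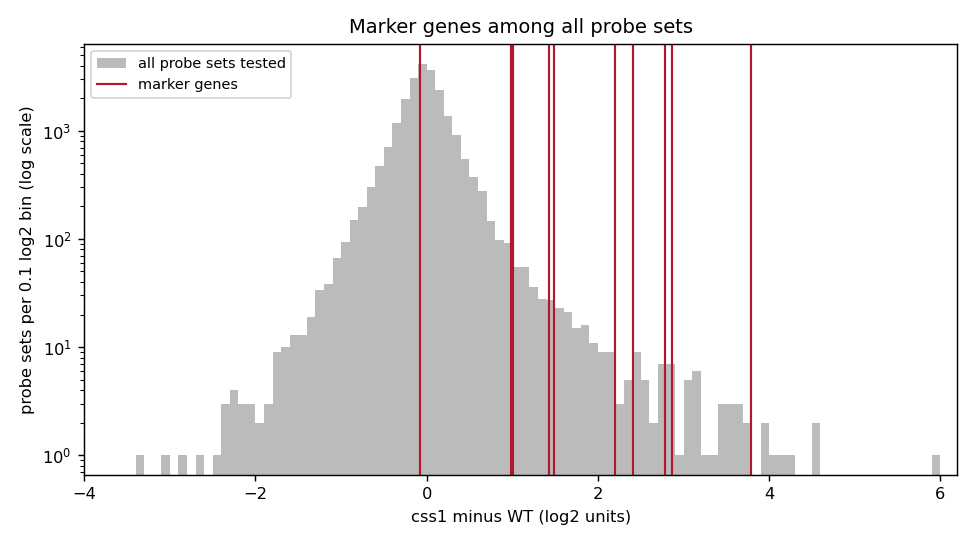
Number of probe sets (log scale, vertical axis) by css1 minus WT difference (log2 units, in bins of 0.1) for all 22746 probe sets tested, in grey. Red lines mark the 10 marker genes, 5 of which are among the 100 largest rises, while AT5G40690 sits in the centre of the distribution.

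Leaving out 1 array at a time left a genotype with 1 array, and fewer probe sets were called in each of these fits. A lost call therefore need not mean a smaller difference: AT2G41380 was at 1.49 with all arrays and at 1.63 without css1 replicate 1. With any 1 array left out, 7 to 8 of the 10 genes passed, and the 7 that passed in every case were UPOX, AT12CYS-2, HSP23.5, GSTU25, AT2G04050, AT1G24095 and AT2G32020. AT2G41380 lost its call when css1 replicate 1 (1.63, limma adjusted p = 0.0562) or css1 replicate 2 (1.34, adjusted p = 0.0893) was left out. AT3G61930 lost its call without css1 replicate 2 (0.73, limma adjusted p = 0.0645), without WT replicate 1 (0.99, adjusted p = 0.0516) and without WT replicate 2 (0.98, adjusted p = 0.0620). The call of AT2G32020 was near the limit without css1 replicate 2 (0.86, limma adjusted p = 0.0498). The difference of AT5G40690 was 0.13 without WT replicate 1 and −0.28 without WT replicate 2, and it passed in neither case (limma adjusted p = 0.439 and 0.153).

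**Figure D4:**
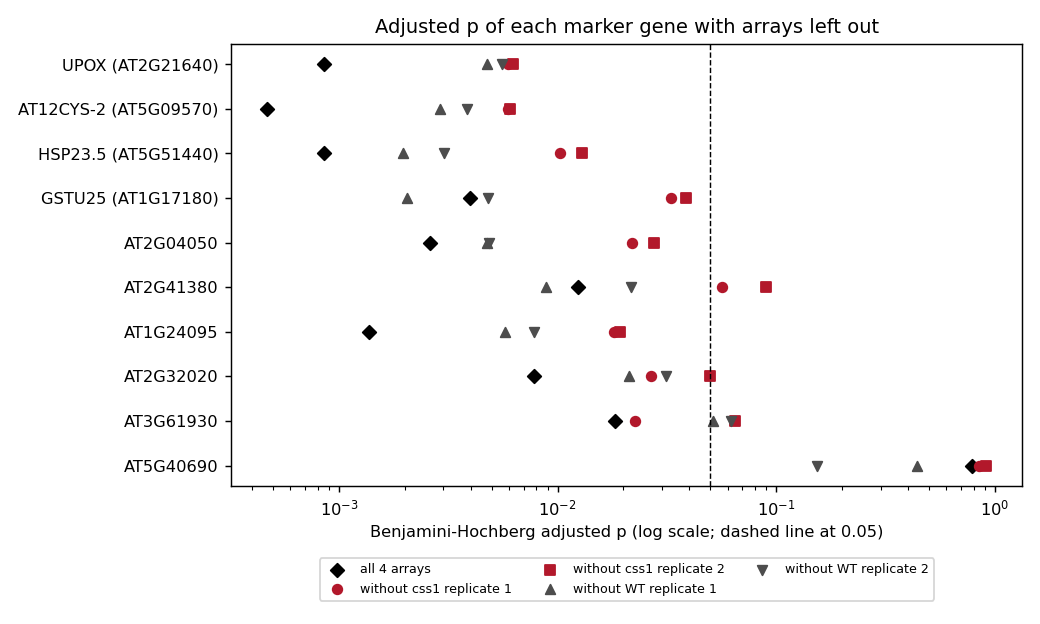
Benjamini-Hochberg adjusted p from limma (log scale, horizontal axis) of each marker gene with all 4 arrays (black diamonds) and with 1 array left out (red, a css1 array; grey, a WT array). The dashed line is the threshold of 0.05; AT2G41380 and AT3G61930 cross it, and AT5G40690 lies to its right throughout.

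Of 15 other genes counted with the mitochondrial dysfunction stimulon, 7 were measured. Measured means, here and below, that a named probe set was joined to the locus. Of the 7, 6 rose, 0 fell and AT1G05060 did not pass (−0.21, limma adjusted p = 0.195), with a list median of 0.83. Among all probe sets, 7.63% were called higher. This list too was chosen with earlier results of these data known. AT2G41730, a gene of unknown function, read 9.52 and 9.36 in css1 and 6.94 and 6.63 in WT, a rise of 2.66 (SE 0.13, 6.31-fold, limma adjusted p = 8.54e-04). Its probe set carries a suffix for probes that may bind other transcripts. The type II NAD(P)H dehydrogenase genes NDB4 (AT2G20800) and NDB2 (AT4G05020), whose products pass electrons into the respiratory chain without complex I, rose by 1.07 and 1.02 (limma adjusted p = 0.00319 and 0.00567). AT5G43450, for an oxygenase-type protein, rose by 0.56 (limma adjusted p = 0.0138) and AT5G14730, of unknown function, by 0.44 (adjusted p = 0.0339). The call of AT5G43450 was lost without css1 replicate 1 (0.52, limma adjusted p = 0.103) and css1 replicate 2 (0.61, adjusted p = 0.0895). That of AT5G14730 was lost without css1 replicate 1 (0.42, limma adjusted p = 0.179), css1 replicate 2 (0.47, adjusted p = 0.162) and WT replicate 1 (0.36, adjusted p = 0.0810).

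Of the other 27 tau-class glutathione transferase genes, 10 were measured, of which 1 rose, 2 fell and 7 did not pass, with a median of −0.09; over all probe sets, 15.6% were called in either direction. GSTU20 (AT1G78370) read 11.67 and 11.69 in css1 and 10.17 and 10.54 in WT, a rise of 1.32 (SE 0.14, limma adjusted p = 0.00515). GSTU28 (AT1G53680) fell by 0.80 (SE 0.11, limma adjusted p = 0.0101) and GSTU22 (AT1G78340) also fell by 0.80 (SE 0.14, adjusted p = 0.0177). Both of these falls lost their call without css1 replicate 1 (limma adjusted p = 0.0633 for GSTU28 and 0.0953 for GSTU22) and without css1 replicate 2 (0.0853 and 0.119). GSTU23 (AT1G78320, −0.24, limma adjusted p = 0.269) and GSTU18 (AT1G10360, −0.16, adjusted p = 0.475) did not pass. GSTU26 (AT1G17190), the protein-coding gene next to GSTU25 in the RefSeq annotation and named here after its values were seen, read 6.76 and 6.62 in css1 and 6.86 and 6.29 in WT, a difference of 0.11 (limma adjusted p = 0.743).

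Of 6 MATE transporter genes listed near AT2G04050, 1 was measured. AT2G04070, separated from it by 4 protein-coding genes and also counted with the stimulon above, read 6.44 and 5.86 in css1 against 5.45 and 5.19 in WT. It rose by 0.83 (SE 0.20, limma adjusted p = 0.0473), a call lost without css1 replicate 1 (0.54, adjusted p = 0.146), WT replicate 1 (0.96, adjusted p = 0.0728) and WT replicate 2 (0.70, adjusted p = 0.152), and also with array weights (0.83, adjusted p = 0.0558). Whether probes of these related genes bind each other's transcripts was not tested. AT5G64400, a twin cysteine protein gene related to AT12CYS-2, had signals of 12.51 and 12.52 in css1 and 12.47 and 12.31 in WT, a difference of 0.13 that did not pass (limma adjusted p = 0.422).

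Among heat shock genes of the cytosol and organelles, 4 of 19 were measured, of which 1 rose and 3 did not pass, with a median of 0.03. For comparison, 15.6% of all probe sets were called in either direction, and 4 genes are too few to set against that share. AT2G29500, for a cytosolic small heat shock protein, read 6.36 and 6.10 in css1 and 4.93 and 4.28 in WT, a rise of 1.63 (SE 0.22, limma adjusted p = 0.0104). It no longer passed when css1 replicate 1 (1.50, limma adjusted p = 0.0695) or css1 replicate 2 (1.75, adjusted p = 0.0595) was left out. AT1G52560, for an organelle small heat shock protein, read 3.42 and 3.13 in css1 and 3.41 and 3.87 in WT, a difference of −0.36 (limma adjusted p = 0.238). AT1G53540, a cytosolic small heat shock gene, was at 0.04 and ATHSP22.0 (AT4G10250), for one of the endomembrane system, at 0.02 (limma adjusted p = 0.807 and 0.942). Of 16 antioxidant and general oxidative stress genes, 2 were measured and neither passed, with 1 at an unadjusted p under 0.05. These are likewise too few to set against the share over all probe sets. GR1 (AT3G24170), for a glutathione reductase, was at 0.36 (limma adjusted p = 0.0508; 0.0320 to 0.240 over the 13 alternatives, passing in 6), and STZ (AT1G27730), for a zinc finger factor of the general stress response, at −0.15 (adjusted p = 0.708). Without WT replicate 2, STZ was at −0.50 and passed (limma adjusted p = 0.0490; up to 0.852 over the 13 alternatives), and without WT replicate 1 it was at 0.20 (adjusted p = 0.249). No listed retrograde regulator was joined to a named probe set, so these genes are not analysed here.

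**Figure D5:**
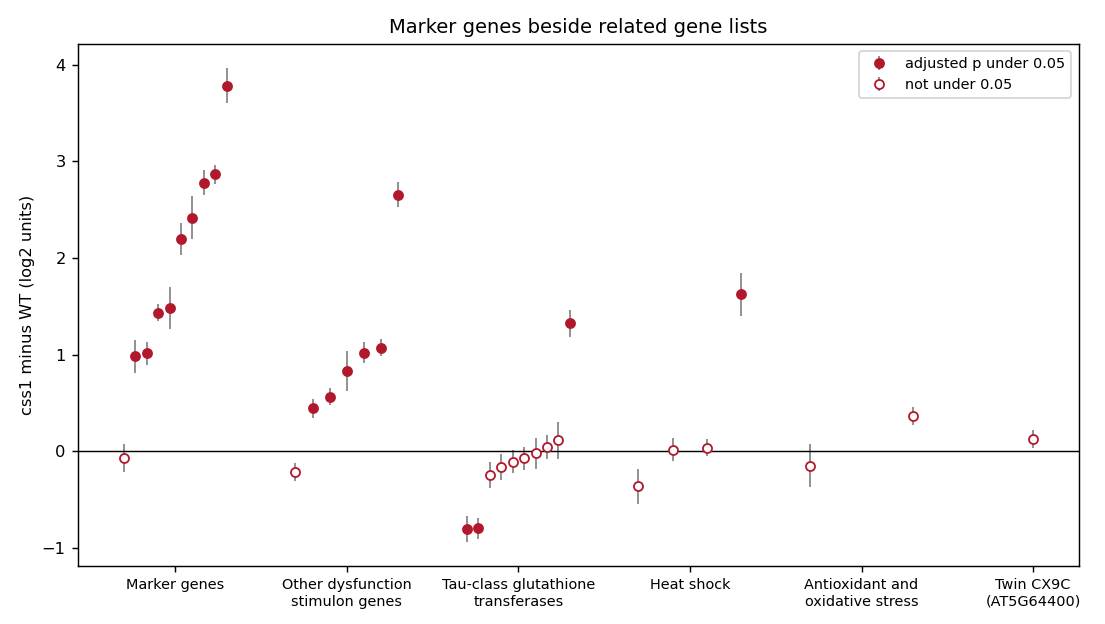
The css1 minus WT difference (log2 units, vertical axis) of the marker genes and of related gene lists, each point 1 gene with its limma standard error. Filled points passed at an adjusted p under 0.05 and open points did not. The other stimulon genes lie mostly above 0, and the glutathione transferases lie on both sides of it.

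The 5 loci outside the list whose 4-array profile came closest to the mean profile of the 10 marker genes were AT5G60250, AT5G64120, AT1G06620, AT3G15650 and AT1G52000. Likeness was the root mean square distance over the 4 arrays between profiles centred on their own mean, and it ran from 0.08 for AT5G60250 to 0.10 for AT1G52000. The marker genes themselves lay 0.24 (AT1G24095) to 0.99 (AT5G40690) from that mean. AT5G60250, for a zinc finger-type protein, differed by 1.80 between css1 and WT, and AT5G64120, for a peroxidase, by 1.97. AT1G06620, for an oxygenase-type protein, was at 1.75, AT3G15650, for a hydrolase-type protein, at 1.96, and AT1G52000, for a lectin-type protein, at 1.73. With 4 arrays, the measure mostly picks genes with a genotype difference of like size.

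Across the 4 arrays the medians lay between 6.32 and 6.37. The correlation over probe sets was 0.997 between the css1 arrays, 0.996 between the WT arrays and 0.982 to 0.986 between genotypes. The 27 Bacillus poly-A spike probe sets, added in preparation and not from the plant, had css1 minus WT differences from −0.08 to 0.58 with a median of 0.23. Their median difference, replicate 2 minus replicate 1, was 0.21 between the WT arrays and 0.06 between the css1 arrays. The 18 hybridisation spike probe sets had a median css1 minus WT difference of 0.004. The difference of each of the 9 called marker genes was larger than that of any spike probe set. Among the other named genes called higher, AT5G43450 (0.56), AT5G14730 (0.44) and the root marker PYK10 (0.50) lay below the largest spike difference. The rest lay above it. The gap between the 3′ and 5′ actin probe sets was 1.09 and 1.29 in css1 and 1.04 and 1.04 in WT. Both css1 actin gaps thus lay above both WT gaps. For the GAPDH probe sets the gap was −0.28 and −0.21 in css1 and −0.42 and −0.25 in WT, where the genotypes overlapped. Of 6 root markers, 4 were measured: the peroxidase gene AT3G01190 fell by 0.88 (limma adjusted p = 0.0142), PYK10 (AT3G09260), for a beta-glucosidase, rose by 0.50 (adjusted p = 0.0199), and the root hair expansin genes EXPA18 (AT1G62980, −0.51, adjusted p = 0.0858) and EXPA7 (AT1G12560, −0.33, adjusted p = 0.123) did not pass. The calls of AT3G01190 and PYK10 were lost without css1 replicate 1 (limma adjusted p = 0.0517 and 0.132) and css1 replicate 2 (0.0965 and 0.101), and that of PYK10 also without WT replicate 2 (0.0574). The mean log2 signal of these 4 markers was 8.80 and 8.67 in css1 and 9.15 and 8.93 in WT, and the listed shoot photosynthesis markers, to which no named probe set was joined, are not analysed here. The part of organ makeup, spike levels or RNA quality in the rises was not tested.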

How the data were processed

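The authors deposited 1 log2 signal per probe set and array, made with RMA (credited to the submitters' processing notes); the RMA version, scanner software and detection calls are not stated there. Per the labels' protocols, 250 ng of total RNA went into each biotinylated cRNA. No further scaling or logarithm was applied. The 64 control probe sets were left out of the tests. Probe sets were joined to loci through the platform annotation and RefSeq's gene table (TAIR10.1 names only, no coordinates): 13484 were joined, 8730 tested ones are not listed there and 503 have several genes. Where a locus had several probe sets, the one with the highest mean was used.

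css1 was compared with WT by limma 3.58.1 in R 4.3.3 (lmFit, eBayes, two-sided, genotype as the only term), with Benjamini-Hochberg adjustment over all 22746 probe sets, after a test on simulated data. The 2 arrays per genotype limit the precision. Named were all 10 marker genes, up to 5 measured genes of each other list with the smallest p, and the 5 closest profiles. GSTU26 and AT1G05060 lie outside that rule and were named after their values were seen. The marker genes and lists were chosen with earlier results of these data known. The alternatives were a filter on dim probe sets, eBayes with trend or robust, median centring, array weights, a repeated quantile normalization, the replicate block, probe set choices and leaving out each array. No sequences were used.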

Additional observations from a re-analysis of the deposited data

How the results depend on the processing

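The count of marker genes called was 9 when the dimmest 30 percent of probe sets were dropped and with trend, robust, median centring, a second quantile normalization, array weights, 1 probe set per locus, or without shared-probe suffixes. It was 7 to 8 with 1 array left out. Their median difference ran from 1.73 (without WT replicate 2) to 1.96 (without css1 replicate 1), and averaging probe sets within a locus changed nothing, since each had 1. Over all probe sets, 560 to 3079 were called with 1 array left out, against 3559 with all arrays. A genotype left with 1 array took its spread from the other genotype in these fits. The replicate numbers are shared between genotypes, and the deviations of same-numbered arrays had a correlation of −0.006 over probe sets. Such a correlation cannot show whether same-numbered samples shared a harvest or batch, which was not tested. With the replicate block, which leaves 1 residual degree of freedom, 1264 probe sets and 7 marker genes were called, without AT2G41380 (limma adjusted p = 0.0613) and AT3G61930 (0.0573). The block also ended the calls of AT2G04070 (0.0508), AT5G43450 (0.0540), AT5G14730 (0.0842), GSTU22 (AT1G78340, 0.0508) and PYK10 (AT3G09260, 0.0597). Of the 130 single-gene results for marker genes, 7 lost a call and 1, the uncalled AT5G40690, changed sign. The WT mean of 8 of the 10 marker genes, UPOX among them, lay under the median of the WT arrays, which limits how well the size of their rises is known, and no detection calls were used.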
